A study of Bos taurus with 12 samples.

Results

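Imprinted genes are expressed mainly from the allele inherited from the mother or mainly from the allele inherited from the father. Parental DNA methylation at imprinting control regions sets the choice, and many imprinted genes lie in clusters that share a control region. In mammals they act on foetal growth, on the placenta and on metabolism, and imprints can be lost in cultured embryonic cells. The roles given below are known chiefly from mouse and human. The counts analysed here do not tell the parental alleles apart, so they give the amount of RNA of each gene and not its imprinting state.

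Of 10 listed imprinted genes, 9 had an entry among the 19285 entries of the count table, found through their Entrez identifiers. They were IGF2, IGF2R, GRB10, PLAGL1, DLK1, PEG10, MEST, NNAT and SNRPN. PEG3 had no entry and is not analysed here. All 9 passed the filter on low counts in the fit, none was too low to measure, and the lowest count of any of them was 454, for PLAGL1 in MC replicate 3. None of the 9 entries shares an Ensembl or Entrez identifier with another entry.

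Poly-A RNA came from the wild-type bovine embryonic stem cell line F7. The 4 groups, with 3 libraries each, were 1/7MC+Pyr+FGF, 1/7MC+Pyr, 1/7MC and MC, of which MC carries the treatment label NC. Going by its title, the study grew the cells on feeder layers at low density and added pyruvate (Pyr) and recombinant human basic fibroblast growth factor (FGF). The labels do not spell out MC, and say neither whether feeder cells were removed before RNA was taken nor whether replicates were separate cultures of this line, so the p-values cover no more than the differences among these libraries. Levels are CPM, that is counts scaled to library size with trimmed-mean (TMM) factors. A gene rose or fell where its adjusted p in the edgeR quasi-likelihood test was under 0.05, and ± is an SD for levels and an SE for log2 fold changes.

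Total counts ranged from 27373759 to 44440972 per library. The counts of MC replicates 2 and 3 appear to rest on gene models that differ from those of the other 10 libraries. This is read from entries that share an identifier, and no label states it. Each comparison with MC was therefore repeated with MC replicate 1 standing alone for MC, which then has no replicate and takes its spread from the other groups. POU5F1, a defining pluripotency gene, lay between 670.6 and 1390 CPM in all 12 libraries, while SOX2 and TDGF1 have no entry. The summed level of 20 markers of fibroblasts and feeders was 17491 to 24298 CPM in 1/7MC+Pyr+FGF, 25582 to 37669 in 1/7MC+Pyr, 22767 to 29983 in 1/7MC and 7554 to 7827 in MC. All 20 of these markers rose in 1/7MC against MC. The 8 pluripotency markers with an entry summed to 3235 to 3658 CPM in 1/7MC+Pyr+FGF, 3909 to 4178 in 1/7MC+Pyr, 2340 to 2663 in 1/7MC and 3896 to 4022 in MC. The 11 neural markers with an entry summed to 789.4 to 1140 CPM in 1/7MC+Pyr+FGF, 874.6 to 1091 in 1/7MC+Pyr, 1109 to 1296 in 1/7MC and 832.5 to 1006 in MC. NES made up most of the neural sum, with group means of 635.8 to 774.8 CPM. The 9 trophoblast markers with an entry summed to 604.3 to 815.6 CPM in 1/7MC+Pyr+FGF, 348.4 to 382.3 in 1/7MC+Pyr, 222.3 to 291.1 in 1/7MC and 445.0 to 498.4 in MC. Most of that sum was KRT18, a keratin of many simple epithelia, with group means of 240.9 to 672.6 CPM. KRT7 had up to 815 counts in a library and GATA3 up to 424, while the defining CDX2, ELF5, HAND1 and PAG2 had at most 6. In bulk RNA, fewer cells of a type and less RNA per cell cannot be told apart, and the part of these marker lists in the changes given below was not tested.

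**Figure D1:**
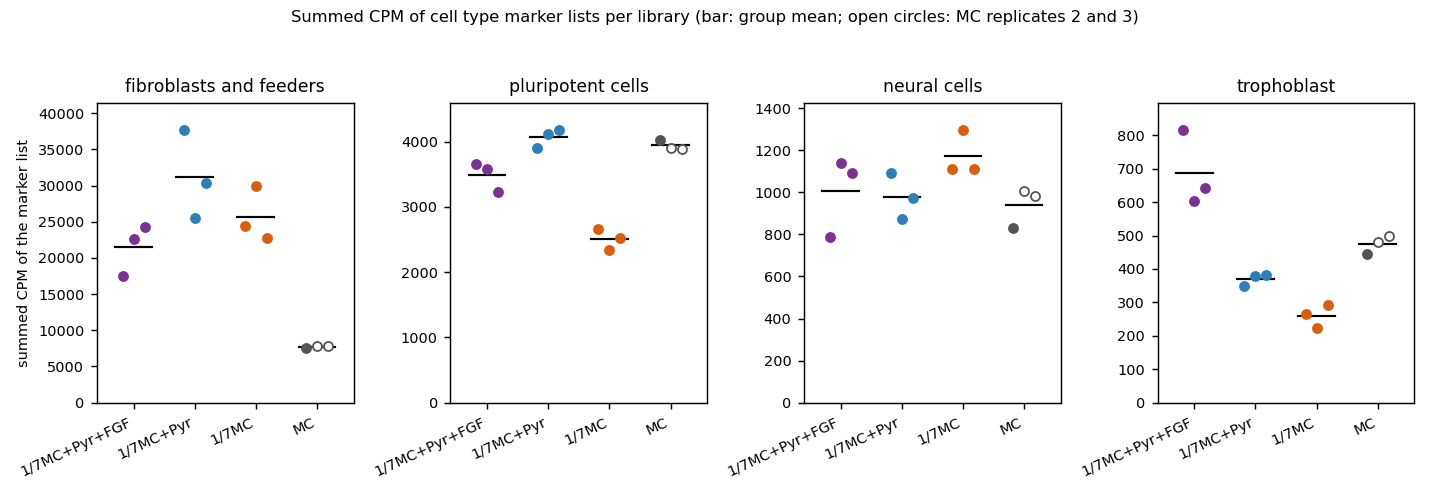
Summed CPM of 4 lists of cell type markers in each library, with the 4 groups on the x axis, a bar at each group mean and MC replicates 2 and 3 as open circles. The fibroblast and feeder sums of the 3 MC libraries lie between 7554 and 7827 CPM, and all other libraries lie at 17491 CPM or above.

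IGF2 and DLK1 carried the widest changes among the 9 genes, and they moved in opposite directions between 1/7MC and MC. The range of the group means of log2 CPM was 3.74 for IGF2 and 3.31 for DLK1, and 1.19% and 1.89% of the 13920 genes tested had a wider range. PEG10 followed with 2.05, where 7.47% of genes were wider. At the other end, IGF2R, GRB10 and NNAT ranged over 0.50, 0.41 and 0.27, and 54.1%, 64% and 83.8% of genes were wider.

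In 1/7MC against MC, IGF2, PEG10, PLAGL1 and GRB10 rose and DLK1 and SNRPN fell. These 6 of 9 genes stand against 45% of all genes tested that were called in this comparison, 23.7% that rose and 21.3% that fell. When MC replicate 1 stood alone for MC, IGF2, PEG10 and PLAGL1 rose and DLK1 fell, and 23.9% of all genes were called. With all libraries, the median absolute log2 fold change of the 9 genes was 1.01, against 0.38 over all genes. With MC replicate 1 alone it was 0.46, against 0.34 over all genes. IGF2R, MEST and NNAT did not pass the test with all libraries. Beside the 20 fibroblast and feeder markers that rose, 5 of 9 neural markers tested rose and 2 fell with all libraries (median log2 fold change 1.05). Of 8 pluripotency markers, 5 fell with all libraries (median -0.66). From MC replicate 1 alone, the median was 1.30 over 11 neural markers and -0.54 over 8 pluripotency markers. Among the neural markers PAX6 averaged 68.7 CPM in 1/7MC and 21.1 CPM in MC, and SIX6 24.6 CPM in 1/7MC and 2.09 CPM in MC. The other way went SIX3, with 104.8 CPM in 1/7MC and 145.3 CPM in MC, and RAX, with 7.73 CPM in 1/7MC and 12.1 CPM in MC.

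In 1/7MC+Pyr against 1/7MC, IGF2, PEG10, MEST and DLK1 fell, and none of the 9 genes rose in the edgeR fit of all 12 libraries or by DESeq2. At an unadjusted p under 0.05, 1 rose, which was IGF2R. IGF2R also rose in a fit of these 2 groups only and without 1/7MC replicate 2. The 4 of 9 genes that fell stand against 10.1% of all genes that fell and 8.08% that rose, 18.1% in all. In the same comparison 6 of 8 pluripotency markers rose, 6 of 9 neural markers tested fell, and 3 of 20 fibroblast and feeder markers rose while 7 fell.

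In 1/7MC+Pyr+FGF against 1/7MC+Pyr, PEG10 and PLAGL1 rose and IGF2 fell. Of all genes, 2.76% were called in this comparison, 0.639% that rose and 2.12% that fell. These 3 calls rest on few libraries: leaving out each library in turn left 0 to 2 of them. None remained without 1/7MC+Pyr+FGF replicate 2, without 1/7MC+Pyr replicate 1 or without 1/7MC+Pyr replicate 3. Of the 20 fibroblast and feeder markers, 6 fell and 0 rose beside these genes (DESeq2 also called 0 that rose, and 0 rose at an unadjusted p under 0.05).

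Set against 1/7MC, the group 1/7MC+Pyr+FGF had a rise of PLAGL1 and falls of IGF2, PEG10, MEST and DLK1, where 11.9% of all genes rose and 15.7% fell (27.6% called). In that comparison 6 of 9 neural markers tested fell (median log2 fold change of the 9, -1.82), 6 of 8 pluripotency markers rose, and 9 of 20 fibroblast and feeder markers fell while 1 rose. Set against MC, the group 1/7MC+Pyr had rises of IGF2, PLAGL1 and GRB10 and falls of PEG10, MEST, SNRPN and DLK1, where 15.2% of all genes rose and 13.2% fell (28.4% called). The comparison of 1/7MC+Pyr+FGF with MC had rises of IGF2 and PLAGL1 and falls of PEG10, MEST, SNRPN and DLK1, where 17.1% of all genes rose and 15.4% fell (32.5% called). When MC replicate 1 stood alone for MC, 5 of the 9 genes were called in 1/7MC+Pyr against MC and 4 in 1/7MC+Pyr+FGF against MC, against 9.71% and 12% of all genes. In both of these comparisons with MC 19 of the 20 fibroblast and feeder markers rose with all libraries. Of the 9 neural markers, 1 rose and 4 fell in 1/7MC+Pyr against MC, and 1 rose and 5 fell in 1/7MC+Pyr+FGF against MC. The 6 comparisons share groups, so their results are not independent of each other.

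**Figure D2:**
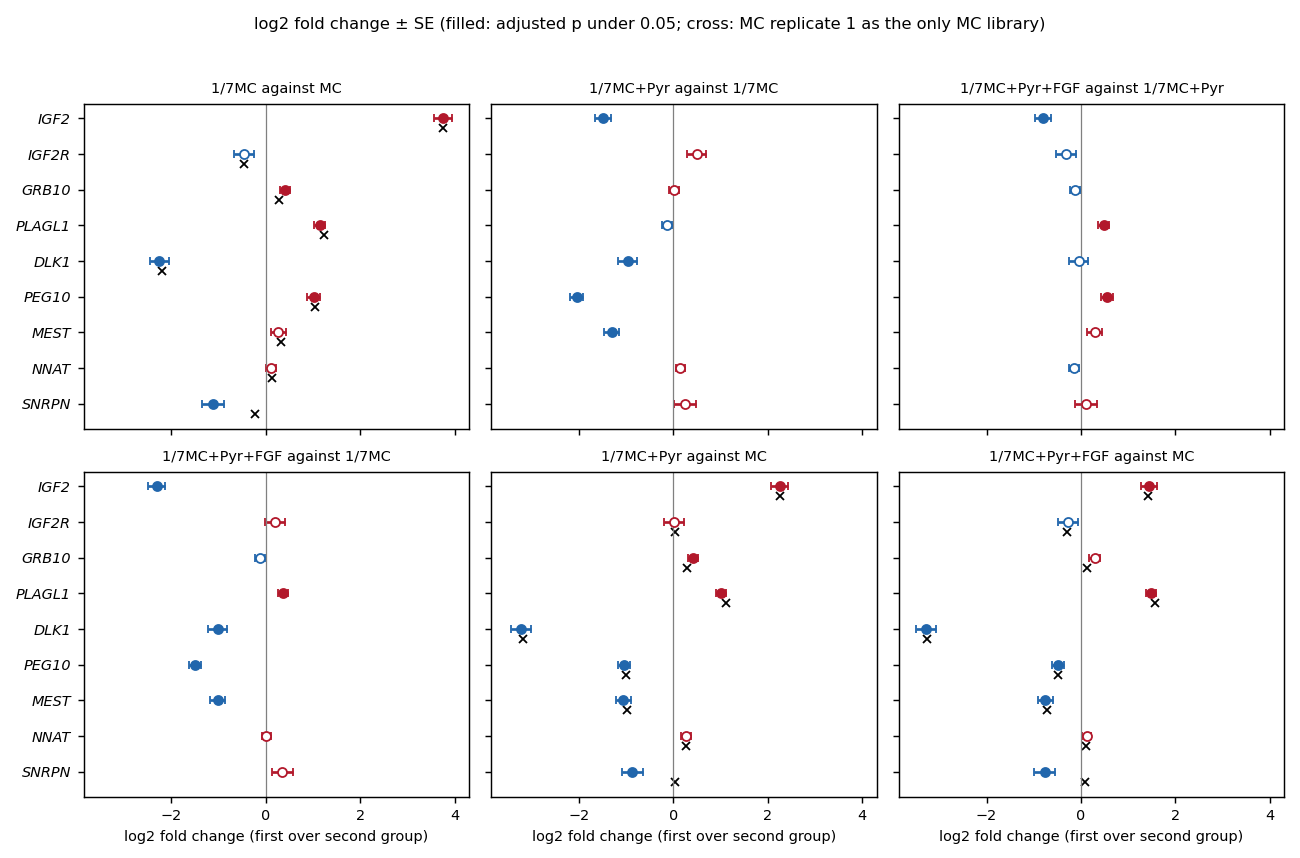
The log2 fold change of the 9 imprinted genes (x axis, first over second named group) in the 6 comparisons, with bars of 1 SE, filled circles at an adjusted p under 0.05 and crosses for the fit in which MC replicate 1 stands alone for MC. IGF2 lies at 3.75 and DLK1 at -2.26 in 1/7MC against MC, and the crosses of SNRPN (-0.23, 0.03 and 0.09) lie apart from its circles (-1.12, -0.87 and -0.77).

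IGF2 encodes insulin-like growth factor 2, a foetal growth factor expressed from the paternal allele. Its level was 87.7, 106.7 and 142.4 CPM in the 1/7MC+Pyr+FGF libraries. It was 239.3, 168.2 and 184.2 CPM in 1/7MC+Pyr, and 540.4, 635.2 and 496.3 CPM in 1/7MC. The MC libraries were low and close together, at 41.6, 41.1 and 41.6 CPM. No pair of groups overlapped, and the order from the highest to the lowest was 1/7MC, 1/7MC+Pyr, 1/7MC+Pyr+FGF and MC.

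IGF2 rose 13.4-fold in 1/7MC against MC, a log2 fold change of 3.75 ± 0.19 (adjusted p = 3.35e-08). With MC replicate 1 alone it was 3.76 ± 0.32 (adjusted p = 4.24e-06). Neighbouring steps were smaller, and IGF2 fell by 1.50 ± 0.17 in 1/7MC+Pyr against 1/7MC (adjusted p = 0.000109). It fell by 0.81 ± 0.17 in 1/7MC+Pyr+FGF against 1/7MC+Pyr (adjusted p = 0.0277). That last call was lost in 4 of 6 fits that left out a library, with the adjusted p at most 0.128, without 1/7MC+Pyr replicate 1. Against 1/7MC the 1/7MC+Pyr+FGF level fell by 2.31 ± 0.18 (adjusted p = 4.99e-06). IGF2 stayed above MC in both supplemented groups, by 2.25 ± 0.18 in 1/7MC+Pyr (adjusted p = 2.44e-06) and by 1.44 ± 0.17 in 1/7MC+Pyr+FGF (adjusted p = 8.66e-05).

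The next genes with an entry on either side of IGF2 in RefSeq's gene table are INS, which encodes insulin and was listed at 0, and MRPL23, a gene of the mitochondrial ribosome. MRPL23 averaged 54.4 CPM in 1/7MC and 57.7 CPM in MC, and its log2 fold change of -0.09 ± 0.15 did not pass the test (adjusted p = 0.66). MRPL23 passed in 1/7MC+Pyr against MC alone of the 6 comparisons, with means of 42.6 CPM in 1/7MC+Pyr and 57.7 CPM in MC (-0.44 ± 0.15, adjusted p = 0.0414). TNNT3, the gene of a skeletal muscle troponin beyond MRPL23, averaged 0.667 CPM in 1/7MC and 0.0106 CPM in MC and rose (adjusted p = 6.08e-05), with a fold that depends on the prior count. Up to 3 genes with an entry on each side of the 9 imprinted genes were counted, and 38 such neighbours were tested. In 1/7MC against MC, 16 rose and 4 fell, beside 23.7% of all genes that rose and 21.3% that fell (45% called). In 1/7MC+Pyr against 1/7MC, 2 rose and 7 fell, beside 8.08% of all genes that rose and 10.1% that fell (18.1% called).

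IGF2R encodes the receptor that takes IGF2 up and delivers it to lysosomes, and is expressed from the maternal allele. It had 140.2, 240.4 and 189.0 CPM in 1/7MC+Pyr+FGF, 276.7, 186.7 and 240.8 CPM in 1/7MC+Pyr and 155.1, 213.6 and 131.3 CPM in 1/7MC. The MC libraries lay at 231.3, 234.4 and 226.9 CPM. The spread within the 3 groups other than MC was wide, and IGF2R passed in none of the 6 comparisons in the edgeR fit of all 12 libraries or by DESeq2. The unadjusted p was under 0.05 for 1/7MC against MC (log2 fold change -0.47 ± 0.21, unadjusted p = 0.0429, adjusted p = 0.0845). It was also under 0.05 for 1/7MC+Pyr against 1/7MC (0.49 ± 0.21, unadjusted p = 0.0348, adjusted p = 0.126), which passed in an edgeR fit of these 2 groups only (0.51, adjusted p = 0.0474). Without 1/7MC replicate 2, the library with the highest of the 1/7MC values, both comparisons passed, at -0.70 (adjusted p = 0.0211) and 0.71 (adjusted p = 0.0446). AIRN, the antisense RNA that overlaps IGF2R in that gene table, has no entry, and no step that marks strand is stated for these libraries, so the share of IGF2R counts from the other strand is unknown. SLC22A3, 3 genes away, averaged 7.43 CPM in 1/7MC and 0.0247 CPM in MC and rose (adjusted p = 3.46e-07), with a fold that depends on the prior count. It fell by 2.44 ± 0.32 in 1/7MC+Pyr against 1/7MC (adjusted p = 0.000294). MRPL18 and PNLDC1, on the other side of IGF2R, passed in neither of these comparisons.

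Per base of gene length, the level of IGF2 over that of IGF2R changed with the group. The ratio averaged 0.885 ± 0.227 in 1/7MC+Pyr+FGF, 1.23 ± 0.103 in 1/7MC+Pyr, 4.97 ± 0.594 in 1/7MC and 0.262 ± 0.00607 in MC (SD, n = 3 each). All 3 libraries of 1/7MC lay at 4.33 or above, and all 3 of MC at 0.268 or below.

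PLAGL1 encodes a zinc finger transcription factor that restrains cell growth and, in mouse, regulates other imprinted genes. It had 39.8, 49.3 and 42.1 CPM in 1/7MC+Pyr+FGF. It had 32.2, 31.5 and 30.1 CPM in 1/7MC+Pyr, 33.1, 37.4 and 32 CPM in 1/7MC and 14.7, 15.1 and 16.8 CPM in MC. The MC libraries were below all others, and the 1/7MC+Pyr+FGF libraries were above all others.

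PLAGL1 rose in every comparison with MC. The log2 fold change was 1.49 ± 0.11 in 1/7MC+Pyr+FGF (adjusted p = 1.66e-06), 1.01 ± 0.11 in 1/7MC+Pyr (adjusted p = 2.88e-05) and 1.14 ± 0.11 in 1/7MC (adjusted p = 4.86e-06). From MC replicate 1 alone these were 1.56, 1.11 and 1.23, and all 3 passed. The smaller step of 1/7MC+Pyr+FGF over 1/7MC+Pyr was 0.48 ± 0.11 (adjusted p = 0.0334), and 1 of 6 fits that left out a library kept the call. Its step over 1/7MC was 0.36 ± 0.11 (adjusted p = 0.0261), and 3 of 6 such fits kept it, with an adjusted p of up to 0.096 without 1/7MC replicate 3. PLAGL1 did not pass in 1/7MC+Pyr against 1/7MC (-0.13 ± 0.11, adjusted p = 0.465). The overlapping gene ZC2HC1B had a mean of at most 0.279 CPM in any group.

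GRB10 encodes an adaptor protein that binds insulin and IGF receptors and limits growth in mouse. It had 61.6, 80.8 and 75.6 CPM in 1/7MC+Pyr+FGF, 81.9, 75.2 and 80.1 CPM in 1/7MC+Pyr, 76.7, 85.5 and 74.2 CPM in 1/7MC and 65.8, 54.7 and 58.0 CPM in MC. Its level thus varied little, and MC replicate 1 was the highest of the MC libraries. GRB10 rose by 0.41 ± 0.11 in 1/7MC against MC (adjusted p = 0.0107) and by 0.41 ± 0.11 in 1/7MC+Pyr against MC (adjusted p = 0.0166). Neither passed when MC replicate 1 stood alone for MC, at 0.27 (adjusted p = 0.278) and 0.28 (adjusted p = 0.383). Without MC replicate 2 neither passed either, at adjusted p = 0.0552 and 0.0833. The call in 1/7MC against MC was also lost without 1/7MC replicate 2 (adjusted p = 0.0534). The call in 1/7MC+Pyr against MC was also lost without 1/7MC+Pyr replicate 3 (adjusted p = 0.0535) and without MC replicate 3 (adjusted p = 0.0633). The value for 1/7MC+Pyr+FGF against MC was 0.29 ± 0.11 (adjusted p = 0.0659), and it passed without 1/7MC+Pyr+FGF replicate 1 (adjusted p = 0.0163) or without MC replicate 1 (adjusted p = 0.0259). GRB10 passed in no comparison without MC. Its values were 0.01 ± 0.11 in 1/7MC+Pyr against 1/7MC (adjusted p = 0.982) and -0.12 ± 0.11 in 1/7MC+Pyr+FGF against 1/7MC (adjusted p = 0.481). For 1/7MC+Pyr+FGF against 1/7MC+Pyr the value was -0.12 ± 0.11 (adjusted p = 0.565).

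Of 15 listed partners of IGF signalling, 13 had an entry and were tested, among them ligands, receptors, IGF-binding proteins and RNA-binding proteins of IGF2 mRNA. In 1/7MC against MC, 6 rose and 3 fell, where 45% of all genes were called, and the median log2 fold change was 0.29 against 0.00 over all genes. With MC replicate 1 alone, 5 rose and 3 fell, where 23.9% of all genes were called, and the median was 0.04 against 0.02 over all genes. IGFBP7, a secreted protein of low affinity for IGFs, had 97.7, 105.5 and 97 CPM in 1/7MC and 7.03, 7.25 and 8.54 CPM in MC, a rise by 3.72 ± 0.12 (adjusted p = 2.78e-09). IGFBP3, the main carrier of IGFs in serum, had 301.3, 323.7 and 310.6 CPM in 1/7MC and 908.5, 1246 and 1218 CPM in MC, and fell by 1.85 ± 0.13 (adjusted p = 3.63e-07). IGFBP5, a binding protein of the extracellular matrix, rose by 1.95 ± 0.23 (adjusted p = 3.05e-05). IGF1, the other IGF ligand, had at most 23 counts in a library, rose by 2.06 ± 0.59 (adjusted p = 0.0125) and lost the call with MC replicate 1 alone (1.19, adjusted p = 0.209).

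Of the 13 partners, 1 rose and 4 fell in 1/7MC+Pyr against 1/7MC, where 18.1% of all genes were called. IGFBP3 rose by 1.22 ± 0.13 (adjusted p = 4.74e-05). IGFBP4, which holds IGFs away from their receptor, fell to 157.4 CPM in 1/7MC+Pyr, against 299.8 CPM in 1/7MC (log2 fold change -0.93 ± 0.09, adjusted p = 4e-05). IGFBP7 fell by 0.61 ± 0.11 (adjusted p = 0.00211). IGFBP5 fell by 0.82 ± 0.23 (adjusted p = 0.0252), a call that 4 of 6 fits without a library lost. IGFBP5 alone was called between 1/7MC+Pyr+FGF and 1/7MC+Pyr, with means of 37.8 CPM in 1/7MC+Pyr+FGF and 73.6 CPM in 1/7MC+Pyr (-0.96 ± 0.23, adjusted p = 0.0439), and 5 of 6 fits without a library lost it. For 1/7MC+Pyr+FGF against 1/7MC, 1 rose and 5 fell (27.6% of all genes called), among them IGFBP3 at 1.06, IGFBP5 at -1.78, IGFBP4 at -0.72 and IGF1 at -1.58, and every fit without a library lost IGF1 (adjusted p = 0.0458 with all libraries).

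Against MC, 5 partners rose and 3 fell in 1/7MC+Pyr, where 28.4% of all genes were called, and 3 rose and 2 fell in 1/7MC+Pyr+FGF, where 32.5% were called. With MC replicate 1 alone, 3 rose and 0 fell in 1/7MC+Pyr (1 fell at an unadjusted p under 0.05), and 3 rose and 1 fell in 1/7MC+Pyr+FGF, where 9.71% and 12% of all genes were called. IGFBP7 rose by 3.11 ± 0.12 in 1/7MC+Pyr (adjusted p = 1.28e-08) and by 3.13 ± 0.12 in 1/7MC+Pyr+FGF (adjusted p = 2.46e-08). IGFBP6, a binding protein with a preference for IGF2, averaged 52.3 CPM in 1/7MC+Pyr+FGF, 46.2 CPM in 1/7MC+Pyr and 22.3 CPM in MC. It rose by 1.23 ± 0.16 in 1/7MC+Pyr+FGF (adjusted p = 0.000133) and by 1.05 ± 0.16 in 1/7MC+Pyr (adjusted p = 0.00042). IGFBP5 averaged 73.6 CPM in 1/7MC+Pyr and 33.5 CPM in MC and rose by 1.13 ± 0.23 (adjusted p = 0.00315), which was lost with MC replicate 1 alone (0.72, adjusted p = 0.137). IGFBP4 averaged 182.4 CPM in 1/7MC+Pyr+FGF and 115.4 CPM in MC and rose by 0.66 ± 0.09 (adjusted p = 0.000255). IGFBP3 fell by 0.79 in 1/7MC+Pyr+FGF and fell by 0.63 in 1/7MC+Pyr, and neither fall passed with MC replicate 1 alone (adjusted p = 0.0548 and 0.287).

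**Figure D3:**
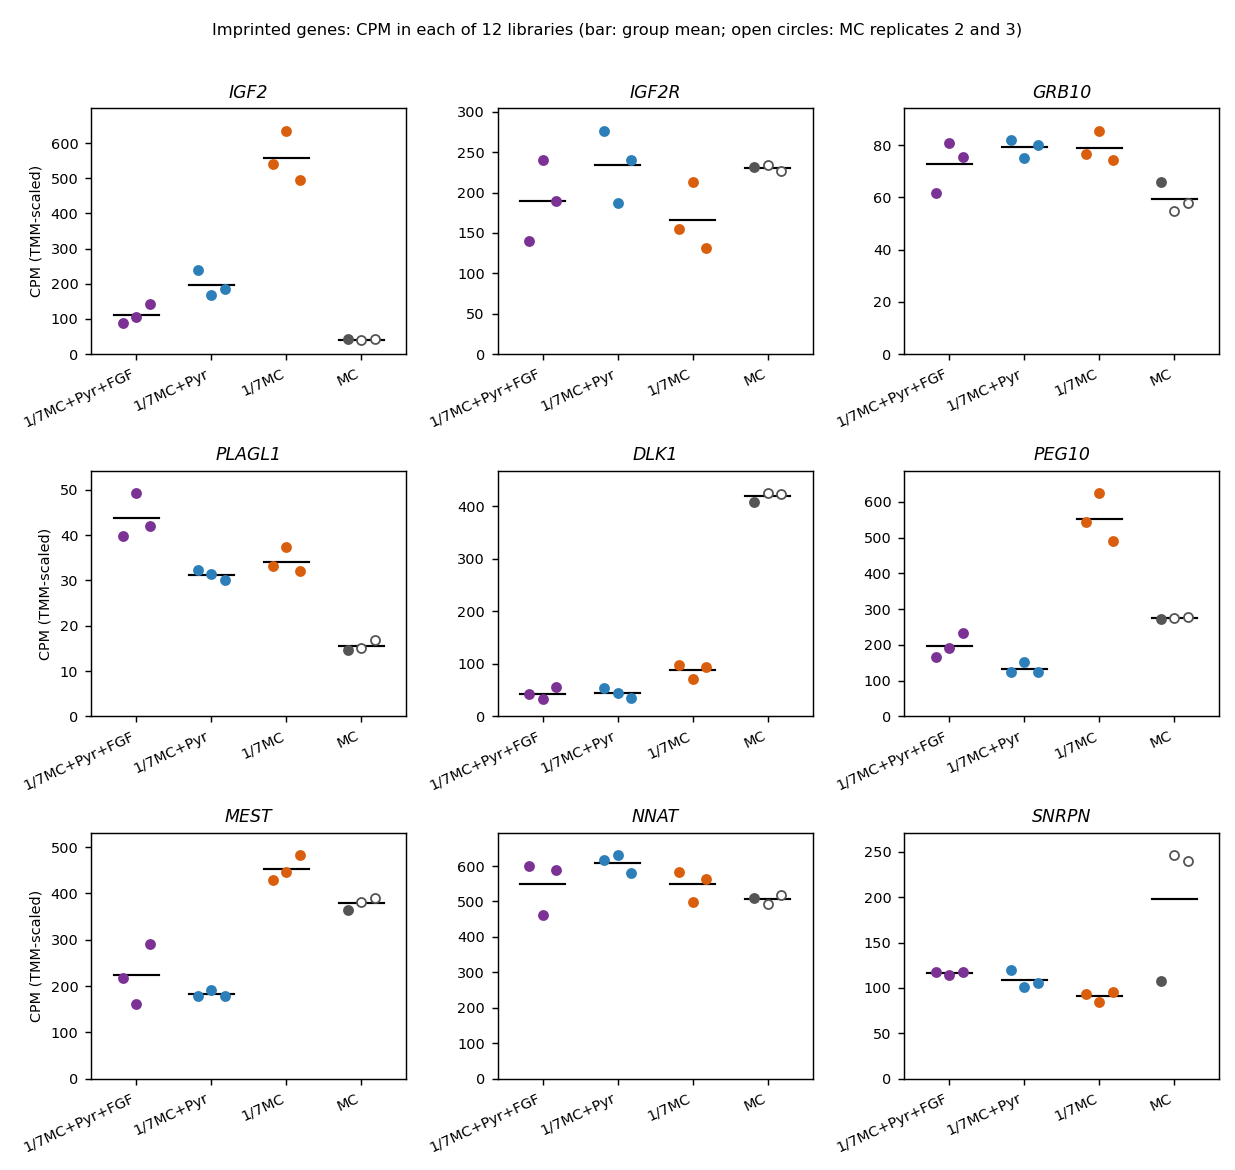
CPM of the 9 imprinted genes (y axes from 0) in each of the 12 libraries by group, with a bar at each group mean and MC replicates 2 and 3 as open circles. IGF2 and PEG10 are highest in 1/7MC (means of 557.3 and 553.2 CPM), DLK1 is highest in MC (419.0 CPM), and SNRPN in MC splits into 107.6 CPM in replicate 1 and 246.3 and 239.6 CPM in replicates 2 and 3.

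DLK1 encodes a transmembrane protein with EGF-like repeats that resembles NOTCH ligands, holds back differentiation of several precursor cells and is expressed from the paternal allele. It had 41.6, 32.6 and 55.3 CPM in 1/7MC+Pyr+FGF and 54.8, 44.4 and 34.7 CPM in 1/7MC+Pyr. It had 97.7, 71.1 and 94.4 CPM in 1/7MC and 408.7, 425.1 and 423.1 CPM in MC. MC was far above all other groups, 1/7MC lay between, and both supplemented groups overlapped at the low end.

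DLK1 fell 4.78-fold in 1/7MC against MC (log2 fold change -2.26 ± 0.20, adjusted p = 2.85e-06), 9.38-fold in 1/7MC+Pyr against MC (-3.23 ± 0.21, adjusted p = 5.42e-07) and 9.7-fold in 1/7MC+Pyr+FGF against MC (-3.28 ± 0.21, adjusted p = 5.93e-07). From MC replicate 1 alone the values were -2.21, -3.18 and -3.26, and all 3 passed. DLK1 fell by 0.97 ± 0.20 in 1/7MC+Pyr against 1/7MC (adjusted p = 0.00477) and had a log2 fold change of -1.02 ± 0.20 in 1/7MC+Pyr+FGF against 1/7MC (adjusted p = 0.00238). Between 1/7MC+Pyr+FGF and 1/7MC+Pyr the difference was -0.05 ± 0.20 (adjusted p = 0.916), within the spread of the libraries.

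RTL1, a retrotransposon-derived gene needed for the placenta in mouse, lies in the DLK1 cluster. It had 1.55, 1.54 and 2.69 CPM in 1/7MC+Pyr+FGF, 3.32, 1.84 and 3.16 CPM in 1/7MC+Pyr, 6.07, 8.91 and 7.16 CPM in 1/7MC and 12.7, 17.8 and 17.4 CPM in MC. Like DLK1 it was highest in every MC library and lowest in the groups with pyruvate. It fell by 3.05 ± 0.28 in 1/7MC+Pyr+FGF against MC (adjusted p = 8.44e-06) and fell by 2.53 ± 0.27 in 1/7MC+Pyr against MC (adjusted p = 2.8e-05). The fall by 1.11 ± 0.25 in 1/7MC against MC (adjusted p = 0.00344) was lost with MC replicate 1 alone (-0.77, adjusted p = 0.106). RTL1 fell by 1.42 ± 0.27 in 1/7MC+Pyr against 1/7MC (adjusted p = 0.00327) and fell by 1.94 ± 0.27 in 1/7MC+Pyr+FGF against 1/7MC (adjusted p = 0.00029).

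DIO3, an enzyme that inactivates thyroid hormone and lies in the same cluster in mouse and human, had few reads, with 8 to 42 counts in a library. It averaged 0.268 CPM in 1/7MC+Pyr+FGF, 0.375 in 1/7MC+Pyr, 1.01 in 1/7MC and 0.381 in MC. Unlike DLK1 and RTL1 it rose in 1/7MC against MC (1.40 ± 0.29, adjusted p = 0.00202), although not with MC replicate 1 alone (1.18, adjusted p = 0.106). It fell by 1.44 in 1/7MC+Pyr against 1/7MC (adjusted p = 0.00521) and fell by 1.90 in 1/7MC+Pyr+FGF against 1/7MC (adjusted p = 0.000645). BEGAIN, the next gene with an entry on the other side of DLK1, averaged 2.01 CPM in 1/7MC+Pyr+FGF, 3.12 in 1/7MC+Pyr, 2.63 in 1/7MC and 4.17 in MC. It passed in 1/7MC against MC (-0.66 ± 0.20, adjusted p = 0.0176) and in 1/7MC+Pyr+FGF against MC (-1.05 ± 0.21, adjusted p = 0.00229).

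PEG10 is a retrotransposon-derived gene needed for the placenta in mouse and expressed from the paternal allele. It had 165.9, 190.4 and 232.3 CPM in 1/7MC+Pyr+FGF, 123.4, 152.1 and 125.3 CPM in 1/7MC+Pyr, 544.7, 624.8 and 489.9 CPM in 1/7MC and 271.9, 275.2 and 276.9 CPM in MC. No pair of groups overlapped. The highest group was 1/7MC, followed by MC, 1/7MC+Pyr+FGF and 1/7MC+Pyr.

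PEG10 rose 2.01-fold in 1/7MC against MC (log2 fold change 1.01 ± 0.13, adjusted p = 6.26e-05) and fell 4.14-fold in 1/7MC+Pyr against 1/7MC (-2.05 ± 0.14, adjusted p = 2.36e-06). It was below MC in 1/7MC+Pyr as well, by -1.04 ± 0.13 (adjusted p = 0.000107). From MC replicate 1 alone these comparisons with MC were 1.04 and -1.01, and both passed. PEG10 rose by 0.55 ± 0.13 in 1/7MC+Pyr+FGF against 1/7MC+Pyr (adjusted p = 0.0442), and 2 of 6 fits without a library kept the call, with an adjusted p of up to 0.181 without 1/7MC+Pyr replicate 1. It fell by 1.50 ± 0.13 in 1/7MC+Pyr+FGF against 1/7MC (adjusted p = 1.12e-05). Against MC it fell by 0.49 ± 0.13 in 1/7MC+Pyr+FGF (adjusted p = 0.0143), which passed neither with MC replicate 1 alone (adjusted p = 0.128) nor without 1/7MC+Pyr+FGF replicate 1 (adjusted p = 0.0556).

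SGCE, which encodes epsilon-sarcoglycan of the muscle membrane complex, is the direct neighbour of PEG10 and is imprinted with it in mouse. It had 7.87, 5.90 and 8.45 CPM in 1/7MC+Pyr+FGF, 10.8, 8.65 and 7.88 CPM in 1/7MC+Pyr, 22.8, 25.9 and 22.3 CPM in 1/7MC and 3.56, 3.96 and 3.64 CPM in MC. Both genes were highest in 1/7MC, but SGCE was lowest in MC, where PEG10 was the second highest. SGCE rose by 2.67 ± 0.17 in 1/7MC against MC (adjusted p = 1.69e-07) and fell by 1.38 ± 0.16 in 1/7MC+Pyr against 1/7MC (adjusted p = 8.95e-05). SGCE rose by 1.29 ± 0.16 in 1/7MC+Pyr against MC (adjusted p = 0.000102), where PEG10 fell. It rose by 0.99 ± 0.16 in 1/7MC+Pyr+FGF against MC (adjusted p = 0.000754), where PEG10 fell as well. The difference in 1/7MC+Pyr+FGF against 1/7MC was -1.67 ± 0.16 (adjusted p = 1.6e-05).

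CASD1, the next gene beyond SGCE, makes a sialic acid acetyltransferase. It averaged 25.7 CPM in 1/7MC and 16.5 CPM in MC, a rise by 0.64 ± 0.10 (adjusted p = 0.000233), and fell by 0.52 ± 0.10 in 1/7MC+Pyr against 1/7MC (adjusted p = 0.00328). PPP1R9A, on the other side of PEG10, averaged 26.4 CPM in 1/7MC and 16.4 CPM in MC and did not pass (0.68 ± 0.28, adjusted p = 0.0617). Its MC libraries split into 26.4 CPM in replicate 1 and 11.7 and 11.2 CPM in replicates 2 and 3. COL1A2, the gene beyond CASD1 and a marker of fibroblasts, averaged 3236 CPM in 1/7MC and 264.2 CPM in MC.

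**Figure D4:**
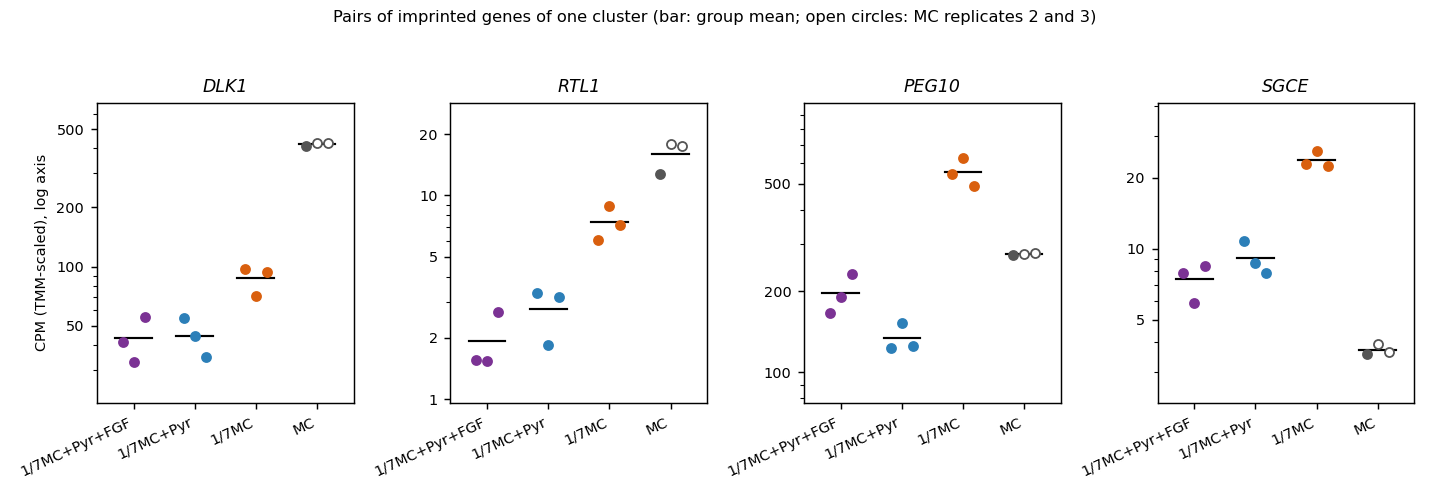
CPM on log axes of DLK1 and RTL1, which lie in the same cluster, and of PEG10 and its neighbour SGCE, in each library by group, with a bar at each group mean and MC replicates 2 and 3 as open circles. DLK1 and RTL1 are highest in MC (means of 419.0 and 16 CPM), whereas PEG10 and SGCE are highest in 1/7MC (553.2 and 23.7 CPM) and SGCE is lowest in MC (3.72 CPM).

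MEST encodes a hydrolase-like protein of mesoderm and of growing fat tissue and is expressed from the paternal allele. It had 218.4, 160.7 and 290.8 CPM in 1/7MC+Pyr+FGF, 178.1, 191.1 and 177.4 CPM in 1/7MC+Pyr, 429.0, 445.6 and 482.6 CPM in 1/7MC and 365.2, 382.2 and 389.8 CPM in MC. Both groups without pyruvate were above both groups with it, in all libraries. The 1/7MC+Pyr+FGF libraries were spread on both sides of those of 1/7MC+Pyr.

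MEST fell by 1.31 ± 0.16 in 1/7MC+Pyr against 1/7MC (adjusted p = 0.000175) and by 1.02 ± 0.16 in 1/7MC+Pyr+FGF against 1/7MC (adjusted p = 0.000624). Against MC it fell by 1.06 ± 0.16 in 1/7MC+Pyr (adjusted p = 0.000424) and by 0.76 ± 0.16 in 1/7MC+Pyr+FGF (adjusted p = 0.00349). From MC replicate 1 alone these log2 fold changes were -0.99 (adjusted p = 0.00997) and -0.73 (adjusted p = 0.0489), the second close to the threshold. Neither 1/7MC against MC (0.26 ± 0.16, adjusted p = 0.21) nor 1/7MC+Pyr+FGF against 1/7MC+Pyr (0.29 ± 0.16, adjusted p = 0.33) passed. The libraries of 1/7MC were all above those of MC, and a fit of these 2 groups only called the difference (0.28, adjusted p = 0.0131). COPG2, a coat protein gene that overlaps MEST in the gene table, averaged 43.5, 40.2, 46.8 and 49.1 CPM in 1/7MC+Pyr+FGF, 1/7MC+Pyr, 1/7MC and MC and passed in no comparison, the lowest adjusted p being 0.0743.

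NNAT encodes neuronatin, a small membrane protein of the developing brain and of pancreatic beta cells, expressed from the paternal allele. It had 600.4, 461.6 and 589.6 CPM in 1/7MC+Pyr+FGF, 616.5, 630.5 and 581.0 CPM in 1/7MC+Pyr, 583.4, 499.6 and 562.1 CPM in 1/7MC and 508.9, 493.8 and 517.4 CPM in MC. It was high in every library and passed in none of the 6 comparisons in the edgeR fit of all 12 libraries or by DESeq2. The log2 fold change furthest from 0 was 0.27 ± 0.10, in 1/7MC+Pyr against MC (unadjusted p = 0.0254, adjusted p = 0.0763). The libraries of these groups did not overlap, and in an edgeR fit of these 2 groups only the difference passed (0.28, adjusted p = 0.0279). BLCAP, which overlaps NNAT in the gene table, averaged 39.2 CPM in 1/7MC+Pyr+FGF, 44.9 in 1/7MC+Pyr, 50.7 in 1/7MC and 32.8 in MC. BLCAP rose by 0.63 ± 0.09 in 1/7MC against MC (adjusted p = 0.000182).

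SNRPN encodes a protein of the small nuclear ribonucleoproteins that act in splicing, and is expressed from the paternal allele of the cluster deleted in Prader-Willi syndrome. It had 117.3, 113.8 and 117.2 CPM in 1/7MC+Pyr+FGF, 119.4, 100.9 and 105.1 CPM in 1/7MC+Pyr and 92.9, 84.2 and 95.7 CPM in 1/7MC. In MC it had 107.6 CPM in replicate 1 against 246.3 and 239.6 CPM in replicates 2 and 3. Replicate 1 lay among the libraries of the other groups and the other two MC libraries stood far above them, at 2.26 times its level.

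Those are the libraries that appear to be counted with other gene models. Between them and MC replicate 1, 6.52% of the genes tested differed at least as much. The part of the gene models in the SNRPN difference was not tested. Among the other 8 imprinted genes the same ratio lay between 0.856 for GRB10 and 1.09 for PLAGL1. With all libraries SNRPN fell by 1.12 ± 0.23 in 1/7MC against MC (adjusted p = 0.00176), by 0.87 ± 0.23 in 1/7MC+Pyr against MC (adjusted p = 0.014) and by 0.77 ± 0.23 in 1/7MC+Pyr+FGF against MC (adjusted p = 0.0222). When MC replicate 1 stood alone for MC, the values were -0.23 ± 0.14, 0.03 ± 0.14 and 0.09 ± 0.14, and none passed (adjusted p = 0.258, 0.95 and 0.713). Of 6 fits that left out a library, 3 kept the call in 1/7MC+Pyr against MC and 1 kept that in 1/7MC+Pyr+FGF against MC, with an adjusted p of up to 0.0659 and 0.0999 without MC replicate 2. SNURF, which overlaps SNRPN in the gene table, has no entry, and reads of near-identical relatives of SNRPN could be split between entries, so its counts are uncertain.

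SNRPN did not pass in the comparisons without MC. All 3 libraries of 1/7MC+Pyr+FGF and of 1/7MC+Pyr were above those of 1/7MC. The log2 fold changes over 1/7MC were 0.35 ± 0.23 (adjusted p = 0.28) and 0.25 ± 0.23 (adjusted p = 0.499). With MC replicates 2 and 3 left out of the fit, an alternative chosen after seeing the data, the difference of 1/7MC+Pyr+FGF over 1/7MC was 0.33 and passed (adjusted p = 0.0267). It also passed in a fit of these 2 groups only (0.36, adjusted p = 0.0176).

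The neighbours of SNRPN in the cluster did not share a direction. NDN, a gene that restrains growth of neurons, averaged 66.9 CPM in 1/7MC+Pyr+FGF, 58.0 in 1/7MC+Pyr, 58.4 in 1/7MC and 30.5 in MC. It rose by 1.13 ± 0.10 in 1/7MC+Pyr+FGF (adjusted p = 6.14e-06), by 0.93 ± 0.10 in 1/7MC+Pyr (adjusted p = 2.69e-05) and by 0.94 ± 0.10 in 1/7MC (adjusted p = 1.1e-05), each against MC. MAGEL2, a relative of NDN that acts in protein recycling, averaged 42.2, 40.2, 27.6 and 47.5 CPM in 1/7MC+Pyr+FGF, 1/7MC+Pyr, 1/7MC and MC. MAGEL2 fell by 0.78 ± 0.11 in 1/7MC against MC (adjusted p = 0.000117) and with MC replicate 1 alone (log2 fold change -0.77, adjusted p = 0.00407), and rose by 0.54 ± 0.11 in 1/7MC+Pyr against 1/7MC (adjusted p = 0.00505). UBE3A, a ubiquitin ligase, lay between 93.4 and 108.0 CPM on average and passed in no comparison.

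Beyond the 9 genes, 32 other imprinted genes were listed, 25 had an entry and 24 were tested, KCNK9 being too low. H19, MEG3, GNAS, MKRN3, SNURF, USP29 and ZNF597 have no entry. In 1/7MC against MC, 7 rose and 6 fell, a share near the 45% of all genes that were called, and the median log2 fold change was 0.07 against 0.00 over all genes. Against MC replicate 1 alone, 5 rose and 4 fell of 25 tested (23.9% of all genes called). CDKN1C, an inhibitor of cyclin-dependent kinases, averaged 48.9 CPM in 1/7MC and 14.6 CPM in MC and rose by 1.75 ± 0.23 (adjusted p = 7.11e-05). TFPI2, a protease inhibitor, rose by 1.49 ± 0.30 at low levels, 1.28 CPM in 1/7MC and 0.455 CPM in MC (adjusted p = 0.00166). ASCL2, a transcription factor of the placenta, had 0, 0 and 2 counts in 1/7MC and 18, 41 and 13 counts in MC, and its fall passed the test (adjusted p = 0.000448). The size of the ASCL2 change depends on the prior count, since 1/7MC was at or near 0. SGCE, RTL1 and DIO3, described above, were the other three with the largest changes.

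Of these 24 genes, 4 rose and 4 fell in 1/7MC+Pyr against 1/7MC, where 18.1% of all genes were called. The falls of SGCE, RTL1 and DIO3 are given above, and DIRAS3, a small GTPase that restrains growth, averaged 8.59 CPM in 1/7MC+Pyr and 12.8 CPM in 1/7MC (-0.57 ± 0.14, adjusted p = 0.0147, lost in 4 of 6 fits without a library). SFMBT2, a Polycomb-group protein, averaged 6.53 CPM in 1/7MC+Pyr and 4.21 CPM in 1/7MC and rose by 0.63 ± 0.15 (adjusted p = 0.0115). That call was lost without 1/7MC+Pyr replicate 3 (0.49, adjusted p = 0.0625) and without 1/7MC replicate 3 (0.60, adjusted p = 0.0536). ASCL2 had 4, 16 and 7 counts in 1/7MC+Pyr, against 0, 0 and 2 in 1/7MC, and passed (adjusted p = 0.0217), but not in 3 of 6 fits without a library.

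Of the same 24, 1 rose in 1/7MC+Pyr+FGF against 1/7MC+Pyr and none fell by edgeR or by DESeq2, while 2 fell at an unadjusted p under 0.05. Of all genes, 2.76% were called there. The gene that rose was NAP1L5, a relative of nucleosome assembly proteins. It had 15.9, 14.5 and 13.1 CPM in 1/7MC+Pyr+FGF and 8.26, 9.63 and 10.3 CPM in 1/7MC+Pyr (0.63 ± 0.13, adjusted p = 0.0216). The groups did not overlap, and 3 of 6 fits without a library lost the call. For 1/7MC+Pyr+FGF against 1/7MC, 3 rose and 8 fell, where 27.6% of all genes were called. CDKN1C fell by 1.18 ± 0.23 (adjusted p = 0.00239), SFMBT2 rose by 0.85 ± 0.15 (adjusted p = 0.00121), and L3MBTL1, a reader of methylated histones, fell by 0.69 ± 0.23 (adjusted p = 0.0426) and lost the call in 5 of 6 fits without a library.

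Against MC, 5 of the 24 rose and 2 fell in 1/7MC+Pyr, and 3 rose and 3 fell in 1/7MC+Pyr+FGF, where 28.4% and 32.5% of all genes were called. Against MC replicate 1 alone, 3 of 25 rose and 1 fell in 1/7MC+Pyr, and 3 rose and 2 fell in 1/7MC+Pyr+FGF (9.71% and 12% of all genes called). CDKN1C rose by 1.24 ± 0.23 in 1/7MC+Pyr (adjusted p = 0.0018), and NAP1L5 by 0.78 ± 0.13 in 1/7MC+Pyr+FGF (adjusted p = 0.000661). TFPI2 rose by 1.34 ± 0.31 in 1/7MC+Pyr (adjusted p = 0.00652), which was lost with MC replicate 1 alone (1.47, adjusted p = 0.0909). ASCL2 had 4, 5 and 4 counts in 1/7MC+Pyr+FGF against 18, 41 and 13 in MC (adjusted p = 0.00669), a call lost with MC replicate 1 alone (adjusted p = 0.115). TRAPPC9, a vesicle trafficking gene, fell by 0.71 ± 0.11 in 1/7MC+Pyr+FGF (adjusted p = 0.000576) and by 0.48 ± 0.11 in 1/7MC+Pyr (adjusted p = 0.00676), and the second of these was lost with MC replicate 1 alone (-0.40, adjusted p = 0.178).

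**Figure D5:**
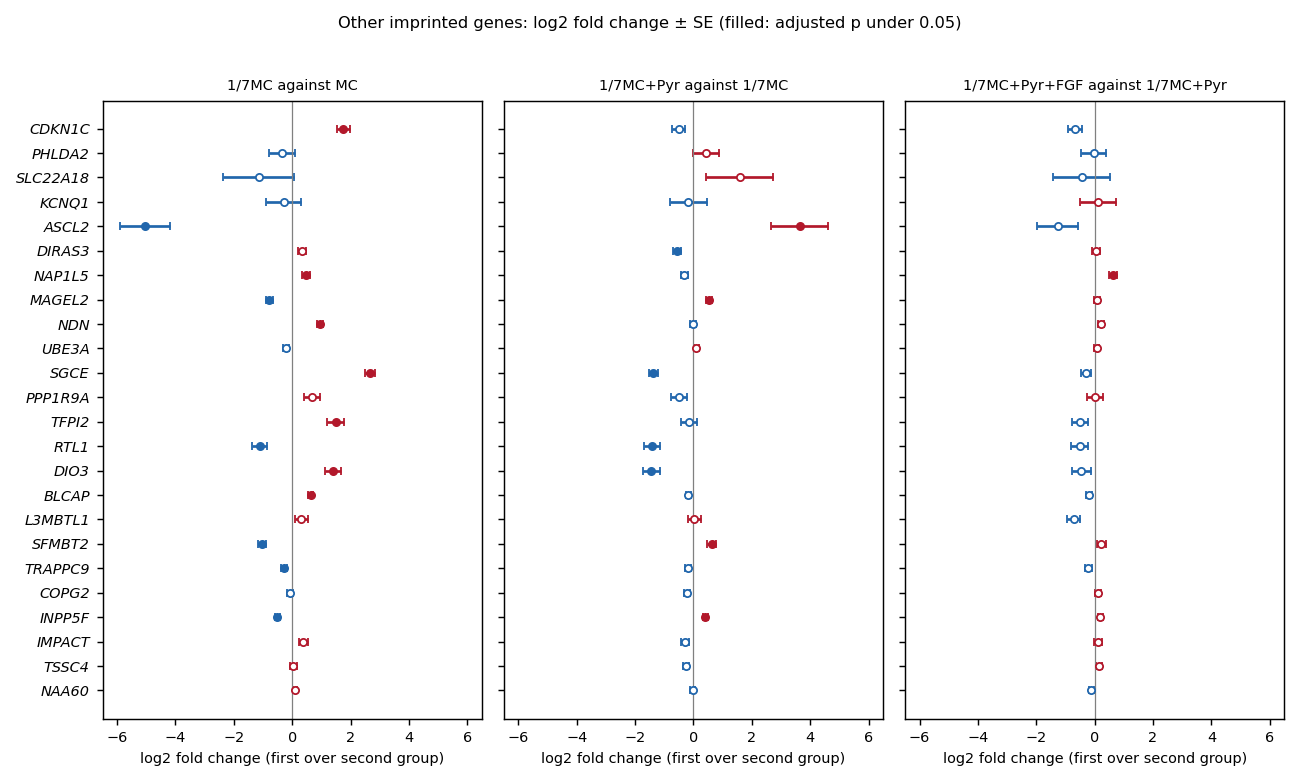
The log2 fold change of the 24 other imprinted genes tested (x axis, first over second named group) in 3 comparisons, with bars of 1 SE and filled circles at an adjusted p under 0.05. In 1/7MC against MC 7 rose and 6 fell, in 1/7MC+Pyr against 1/7MC 4 rose and 4 fell, and in 1/7MC+Pyr+FGF against 1/7MC+Pyr NAP1L5 rose and none fell.

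Of 14 listed factors that establish or keep imprints, all had an entry and 12 were tested, DPPA3 and NLRP2 being too low. Their changes were small beside those of IGF2 and DLK1. In 1/7MC against MC, 3 rose and 4 fell, where 45% of all genes were called. Their median log2 fold change was -0.08, against 0.00 over all genes. From MC replicate 1 alone the median was -0.11, against 0.02 over all genes. SMCHD1, a chromatin protein of silenced alleles, averaged 111.8 CPM in 1/7MC and 170.5 CPM in MC and fell by 0.61 ± 0.10 (adjusted p = 0.00049). ARID4B and ARID4A, chromatin proteins that act at the Prader-Willi cluster in mouse, rose by 0.59 ± 0.11 (adjusted p = 0.000817) and 0.50 ± 0.12 (adjusted p = 0.00397). HELLS, a chromatin remodeller needed for DNA methylation, fell by 0.49 ± 0.11 (adjusted p = 0.00398), which was lost with MC replicate 1 alone (-0.46, adjusted p = 0.0594).

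Of the 12 factors, 1 rose and 1 fell in 1/7MC+Pyr against 1/7MC, a share near the 18.1% of all genes. UHRF1, which brings the maintenance methyltransferase to replicated DNA, averaged 193.7 CPM in 1/7MC+Pyr and 274.5 CPM in 1/7MC and fell by 0.50 ± 0.08 (adjusted p = 0.000815). ZFP57, a zinc finger protein that binds methylated imprinting control regions, averaged 69.2 CPM in 1/7MC+Pyr and 54.0 CPM in 1/7MC. ZFP57 rose by 0.36 ± 0.10 (adjusted p = 0.0269), a call that 4 of 6 fits without a library lost. None of the 12 rose or fell by edgeR in 1/7MC+Pyr+FGF against 1/7MC+Pyr, while 1 rose at an unadjusted p under 0.05 and 1 rose by DESeq2.

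Set against 1/7MC, the group 1/7MC+Pyr+FGF had 2 of these factors higher and 2 lower past the test, where 27.6% of all genes were called. They were ZFP57 at 0.34, SMCHD1 at 0.31, UHRF1 at -0.28 and SETDB1, a histone methyltransferase, at -0.24. All 4 of these calls were lost in some of the fits without a library, that of SMCHD1 in all 6. Against MC, 1 rose and 3 fell in 1/7MC+Pyr, and 2 rose and 2 fell in 1/7MC+Pyr+FGF, shares near the 28.4% and 32.5% of all genes. With MC replicate 1 alone, none of the 12 passed in either comparison with the edgeR test. At an unadjusted p under 0.05 that fit had 1 rise and 1 fall in 1/7MC+Pyr, and 2 rises and 1 fall in 1/7MC+Pyr+FGF. The calls with all libraries in 1/7MC+Pyr were ARID4B at 0.48, SMCHD1 at -0.38, DNMT1, the maintenance methyltransferase, at -0.27 and SETDB1 at -0.24. Those in 1/7MC+Pyr+FGF were ARID4A at 0.50, ARID4B at 0.36, SETDB1 at -0.31 and SMCHD1 at -0.30. Of 6 fits without a library each, those of 1/7MC+Pyr lost DNMT1 in 6, SETDB1 in 5 and SMCHD1 in 1, and those of 1/7MC+Pyr+FGF lost SMCHD1 in 4 and ARID4B in 3.

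The genes whose log2 CPM most resembled those of IGF2, DLK1 and PEG10 were sought over the 10 libraries without MC replicates 2 and 3. These libraries share the group structure, so the correlations describe the order of the groups. For IGF2 they were STAT3 (r = 0.994), a transcription factor of cytokine signalling, KCNH2 (r = 0.994), a potassium channel, and ARID5A (r = 0.994), an RNA-binding regulator. Over all 12 libraries r was 0.996, 0.763 and 0.985. STAT3 averaged 38.7 CPM in 1/7MC+Pyr+FGF, 51.8 in 1/7MC+Pyr, 78.2 in 1/7MC and 27 in MC, the order of IGF2 on a narrower range. For DLK1 they were the forebrain transcription factor FEZF2 (r = 0.976 over 10 and 0.979 over 12 libraries), PAX2 (0.971 and 0.984) and MPP2 (0.971 and 0.985). PAX2, a transcription factor of kidney and of the eye stalk, averaged 3.27 CPM in 1/7MC+Pyr+FGF, 3.44 in 1/7MC+Pyr, 7.20 in 1/7MC and 20.6 in MC. For PEG10 they were SEMA3A (r = 0.985 and 0.909), a guidance cue of axons, DBX2 (0.972 and 0.921), a homeobox gene, and RLBP1 (0.970 and 0.967), a retinal-binding protein. RLBP1 averaged 0.682 CPM in 1/7MC+Pyr+FGF, 0.454 in 1/7MC+Pyr, 18.0 in 1/7MC and 3.69 in MC.

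Per base of gene length, where levels of different genes can be compared, NNAT ranked first and PLAGL1 last of the 9 genes in all 12 libraries. IGF2 had rank 6 to 7 in 1/7MC+Pyr+FGF, rank 4 in every 1/7MC+Pyr library, rank 3 in every 1/7MC library and rank 8 in every MC library. DLK1 had rank 4 to 6 in the groups other than MC and rank 2 in every MC library. MEST moved between rank 2 and rank 4, and GRB10 between rank 7 and rank 8.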

How the data were processed

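The submitters' processing notes name HISAT2 2.1.0, fastp 0.19.7, featureCounts, Subread 2.0 and the build bosTau9, in an order and with an annotation not given in the sources used here. The deposited table holds raw counts per gene, to which the authors applied no normalisation. A second deposited table named TPM was not used, since it is the count over gene length times a constant of 4.9433 in every library.

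Of 19285 entries, 400 that share an Ensembl or Entrez identifier with another (1.07% to 1.4% of counts) were left out. Of 128 shared Ensembl identifiers, 80 to 86 had differing counts in 10 libraries and 0 in MC replicates 2 and 3. Symbols and neighbours come from RefSeq's table of the assembly ARS-UCD2.0, another build, so no coordinates are given. Entrez identifiers gave 18803 kept entries a symbol. The gene models behind the lengths are the authors' deposited ones.

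filterByExpr left 13920 genes (14361 when MC replicate 1 stood alone for MC). TMM factors were 0.968 to 1.04. All 6 pairs of groups were tested with edgeR 4.0.16 (quasi-likelihood F test, 1 coefficient per group, all 12 libraries), with Benjamini-Hochberg adjustment over all genes. Every adjusted p is from this edgeR test, in the fit of all 12 libraries unless another fit is named beside the value. The SE is the log2 fold change over the square root of F. Log2 CPM used a prior count of 2. DESeq2 1.42.0, R 4.3.3, Python 3.11.15 and matplotlib 3.10.9 were used, and the scripts were tested on simulated data.

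Members and gene lists were chosen with earlier results of these data known. All members are named in every comparison, and of the lists those called with the largest change, up to 6 other imprinted genes and up to 4 of each further list. Neighbouring genes were chosen by position, after values had been seen.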

Additional observations from a re-analysis of the deposited data

How the results depend on the processing

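Of 54 log2 fold changes (9 genes in 6 comparisons), 31 passed the test and 21 of these passed under every alternative run, which were other size factors, other filters, DESeq2, a fit of 2 groups, the replicate block, fits without MC replicates 2 and 3 and fits without a library. The count in 1/7MC+Pyr+FGF against 1/7MC+Pyr was 3, against 1 in a fit of the 2 groups only, 0 with the replicate number as a block and 0 to 2 without a library. The cause was not tested. Deviations of same-numbered libraries correlated at -0.316 to 0.333, with no comparison above 0.1 in every pair. With 3 libraries per group, these correlations cannot decide whether the numbers pair the libraries. In 1/7MC+Pyr+FGF against 1/7MC+Pyr, 384 genes of all were called, against 857 with DESeq2, 181 with the block and 127 to 439 without a library. Without a library, 1/7MC+Pyr against 1/7MC had 1423 to 2252 calls in place of 2525, the lowest without 1/7MC+Pyr replicate 3. In the same fits 1/7MC+Pyr against MC had 2571 to 5151 in place of 3949. For 1/7MC+Pyr+FGF against MC there were 3015 to 5337 in place of 4527. Both of these comparisons with MC were lowest without MC replicate 2.

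Some directions reversed. With a stricter filter, GRB10 was -0.01 in 1/7MC+Pyr against 1/7MC, NNAT -0.02 in 1/7MC+Pyr+FGF against 1/7MC and IGF2R -0.04 in 1/7MC+Pyr against MC. NNAT was also -0.02 with MC replicates 2 and 3 left out. SNRPN was 0.03 in 1/7MC+Pyr and 0.09 in 1/7MC+Pyr+FGF against MC replicate 1 alone. Without a library, GRB10 ran from -0.03 to 0.07 in 1/7MC+Pyr against 1/7MC and DLK1 from -0.27 to 0.13 in 1/7MC+Pyr+FGF against 1/7MC+Pyr. In 1/7MC+Pyr+FGF against 1/7MC, NNAT ran from -0.06 to 0.12 and IGF2R from -0.02 to 0.41, and IGF2R from -0.11 to 0.15 in 1/7MC+Pyr against MC. With MC replicate 1 alone, 3438 genes of all were called in 1/7MC against MC in place of 6268, 1394 in place of 3949 in 1/7MC+Pyr against MC and 1723 in place of 4527 in 1/7MC+Pyr+FGF against MC. No other scaling moved the median of all genes by more than 0.1 on the log2 scale.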
